A study of Mus musculus with 4 samples.

Results

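The type 2 effector cytokines and their companion products were followed here as 8 genes, Il4, Il5, Il13, Il6, Areg, Calca, Ccl1 and Hs3st1, found by symbol among the 26033 features of the count matrices. All 8 were present, each under 1 symbol. The libraries came from CD45+ leukocytes of the mouse salivary gland at 20 days of age, sorted after bead enrichment and read by droplet 3′ RNA sequencing. Csf2-/- mice, which carry no working copy of the gene for the growth factor GM-CSF, were set against Csf2+/- mice, which carry 1 working copy, all labelled as strain C56BL/6. Each genotype was represented by a female and a male library (n = 2 libraries per genotype), each made from 2 mice, so the tests below rest on the spread between 4 pools and include the difference between the sexes. No Csf2+/+ library was analysed here, and no cell type limits the deletion in the labels. The question was whether group 2 innate lymphoid cells (ILC2s) that cannot make GM-CSF differ in their other products, and how many of those transcripts are counted in myeloid barcodes.

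ILC2s are tissue-resident lymphocytes without antigen receptors that answer epithelial alarm signals such as IL-33 and IL-25, under the control of the transcription factor GATA3. Their classical products are IL-5, a growth factor for eosinophils, and IL-13, which acts on epithelium, smooth muscle and macrophages, and to a lesser extent IL-4, which drives the same receptor system. They also make the epidermal growth factor family ligand amphiregulin (Areg), the neuropeptide CGRP (encoded by Calca) and the chemokine CCL1, a ligand of CCR8, and these share no genomic cluster with the cytokines.

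The genes for IL-4, IL-13 and IL-5 lie in 1 type 2 cytokine cluster on mouse chromosome 11, on which Csf2 and Ccl1 also lie. The sequences just upstream of the starts of Il5, Il13 and Il4 are shown because these neighbours are the ones that a GATA3-driven lymphocyte is known for, and because their levels are compared below with Csf2 missing. Each run holds the 250 bases before the RefSeq transcript start in build GRCm38.p6, 5′ to 3′ on the gene's own strand. This build is older than the GRCm39 of the counts, so the coordinates serve for these sequences only. Capitals mark a GATA-type word, GATAA or AGATAG, searched on both strands.
Il5: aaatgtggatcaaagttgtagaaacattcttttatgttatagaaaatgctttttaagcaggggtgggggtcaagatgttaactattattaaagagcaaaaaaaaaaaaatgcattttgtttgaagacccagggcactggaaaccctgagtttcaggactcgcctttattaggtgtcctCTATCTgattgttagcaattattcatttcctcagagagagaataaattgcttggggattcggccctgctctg
Il13: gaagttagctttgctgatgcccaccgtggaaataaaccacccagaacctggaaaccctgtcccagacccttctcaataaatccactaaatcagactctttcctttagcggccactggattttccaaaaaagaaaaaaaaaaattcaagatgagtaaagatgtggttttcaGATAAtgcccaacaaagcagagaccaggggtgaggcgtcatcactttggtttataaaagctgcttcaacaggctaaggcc
Il4: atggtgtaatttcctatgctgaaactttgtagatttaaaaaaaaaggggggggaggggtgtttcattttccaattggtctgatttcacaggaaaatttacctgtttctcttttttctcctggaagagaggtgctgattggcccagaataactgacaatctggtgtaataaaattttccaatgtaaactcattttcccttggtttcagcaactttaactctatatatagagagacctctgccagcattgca
The Il5 window is chr11:53720544-53720793 on the plus strand, and its CTATCT is AGATAG on the other strand, with its first base 72 bases before the start. The Il13 window is chr11:53634703-53634952 on the minus strand, with GATAA 80 bases before the start. The Il4 window is chr11:53618666-53618915 on the minus strand, before the more upstream of 2 RefSeq starts, and holds neither word. GATAA was found in 22.6% of 32851 windows of the same length over all genes, AGATAG in 7.71% and either in 27.7%. Of 10 windows for the 8 genes and Csf2, with 2 for Il4, 5 held GATAA (Il6, Calca, Il13, Csf2 and Ccl1) and 1 held AGATAG. Words this short occur often, so a match is given as a description of the sequence.

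The libraries held between 111981802 and 122366588 unique molecular identifiers (UMIs, 1 per captured transcript), and 34805 cells were kept of 39395 barcodes. Clusters were formed without the 8 genes and Csf2 and named from fixed markers, so a name such as ILC2-like is rebuilt here. Of the 54 clusters, numbers 1, 6, 8, 20, 36 and 44 were ILC2-like. They held 1431 female and 2122 male cells of Csf2-/- mice, and 1358 female and 1310 male cells of Csf2+/- mice. Of 12 ILC2 markers, 10 stood at 20 CPM or more in these cells (CPM, the UMIs of a gene per 1000000 UMIs of the cells named), while Ptgdr2 was at or near 0 and Nmur1 at 5.47 to 11.2. Their summed level was 6923 and 7280 CPM in Csf2-/- and 7393 and 7981 in Csf2+/- ILC2-like cells. A UMI of a CD3 gene was found in 35.6% and 34.5% of the Csf2-/- and 40.4% and 37.6% of the Csf2+/- ILC2-like cells, against 94.7% to 96.3% of alpha-beta T-like cells. The summed macrophage markers were at 308 and 259 CPM in Csf2-/- and 185 and 193 in Csf2+/- ILC2-like cells. Pairs of libraries shared between 20 and 38 cell barcodes. Csf2, the targeted gene, followed the labels. It stood at 6.65 and 5.77 CPM in Csf2-/- and 126 and 137 in Csf2+/- ILC2-like cells (log2 fold change -4.46, SE 0.10, edgeR quasi-likelihood adjusted p = 2.13e-08).

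With Csf2 missing, none of the 8 genes passed the edgeR quasi-likelihood test in ILC2-like cells, where 0.0259% of 11573 genes were called. Il4, Il13 and Areg lay slightly above Csf2+/- and Il5, Il6, Calca, Ccl1 and Hs3st1 slightly below, with fitted log2 differences between -0.40 and 0.24. Hs3st1 and Calca were the 2 genes whose Csf2-/- libraries both lay below both Csf2+/- libraries. How many of all 11573 genes split in that way was not counted, so the split is a description only. Values are given in the order female and male within a genotype, and genotype differences are log2 of Csf2-/- over Csf2+/-. In summed counts, fewer producing cells and fewer transcripts per producing cell cannot be told apart, so the share of cells with a UMI is given beside the level.

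**Figure D1:**
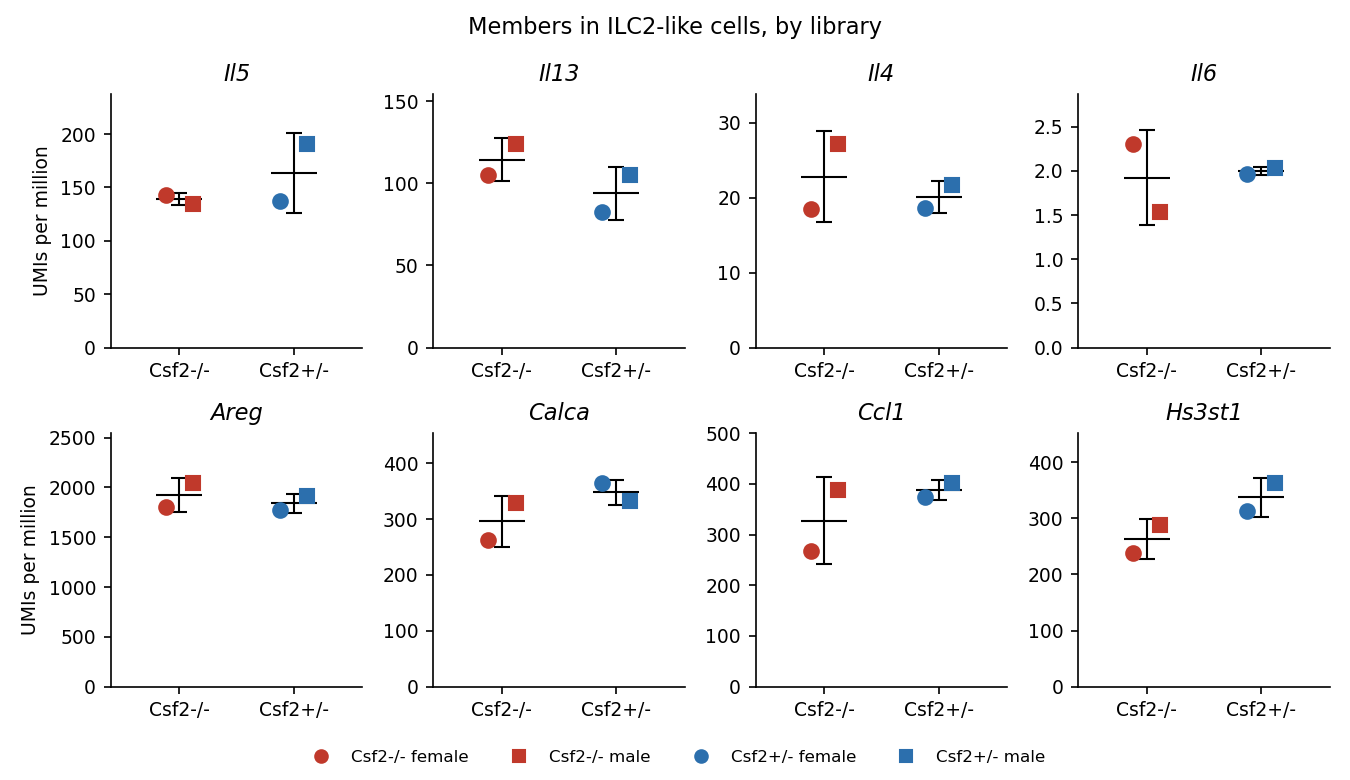
Level of each gene in ILC2-like cells, in CPM, with 1 point per library (circle female, square male) and the mean with its SD over 2 libraries as black lines, Csf2-/- on the left and Csf2+/- on the right of each panel. Hs3st1 is at 238 and 288 in Csf2-/- and 312 and 362 in Csf2+/- cells, whereas the points of Areg, Il5, Il13, Il4, Il6 and Ccl1 overlap or nearly touch.

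Il5, the eosinophil growth factor, had 143 and 135 CPM in Csf2-/- and 137 and 190.3 in Csf2+/- ILC2-like cells. Only the Csf2+/- male library stood above the rest, and the genotypes overlapped (log2 -0.28, SE 0.14, edgeR adjusted p = 0.589). With every cell thinned to 3000 UMIs, 17.4% and 16.5% of Csf2-/- and 17.2% and 20.8% of Csf2+/- cells held an Il5 UMI. The exact 95% binomial interval of the highest of these shares was 18.7% to 23.2%, and such intervals cover counting error only. Without thinning, 30.1% and 28.8% of Csf2-/- and 30.1% and 33.5% of Csf2+/- cells held one, the Csf2+/- cells being read more deeply (median UMIs 8047 and 7927.5 in Csf2-/-, 9689 and 8973.5 in Csf2+/-).

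Il13, the effector of mucus and alternative macrophage responses, had 105.1 and 124 CPM in Csf2-/- and 82.6 and 105.3 in Csf2+/- ILC2-like cells. The Csf2-/- male library was highest and the Csf2+/- female lowest, and the other libraries were level (log2 0.24, SE 0.11, edgeR adjusted p = 0.550). An Il13 UMI was found in 10.6% and 11.5% of thinned Csf2-/- and 8.70% and 10.1% of thinned Csf2+/- cells. These shares did not overlap, yet the exact permutation test of 2 against 2 libraries gives p = 0.333 for such a split, the smallest it can give.

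Il4, the cytokine that shares a receptor chain with IL-13, is known from eosinophils and basophils as well. It stood at 18.5 and 27.1 CPM in Csf2-/- and 18.6 and 21.6 in Csf2+/- ILC2-like cells, so the genotypes overlapped (log2 0.15, SE 0.17, edgeR adjusted p = 0.852). In thinned cells, 3.80% and 6.09% of Csf2-/- and 3.05% and 5.19% of Csf2+/- cells held an Il4 UMI, with the male library above the female in each genotype. The difference between the sexes did not pass in a fit with genotype (female over male, log2 -0.36, edgeR adjusted p = 0.398). In DESeq2, Il4 and Il6 had no adjusted p and the other genes did not pass that test of sex. None of the 8 passed it by edgeR, which called 0.225% of 11573 genes. In the edgeR test of sex 4 of the 8, Il4, Il13, Ccl1 and Hs3st1, had an unadjusted p under 0.05, each lower in females. Of all 11573 genes 1007 had such a p, counted in either direction.

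Il6, a pleiotropic inflammatory cytokine, was barely seen in ILC2-like cells, at 2.30 and 1.54 CPM in Csf2-/- and 1.97 and 2.03 in Csf2+/- cells, from 25 to 28 UMIs per library. The Csf2-/- libraries lay on either side of the Csf2+/- ones (log2 -0.14, SE 0.33, edgeR adjusted p = 0.950). The share of thinned cells with an Il6 UMI had the opposite sign, at 0.646% and 0.672% of Csf2-/- and 0.297% and 0.620% of Csf2+/- cells, without overlap (exact permutation p = 0.333). Without thinning the shares overlapped, at 0.908% and 1.04% of Csf2-/- and 0.957% and 1.53% of Csf2+/- cells.

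Areg, the growth factor ligand of the EGF receptor, had 1802 and 2042 CPM in Csf2-/- and 1769.7 and 1910.4 in Csf2+/- ILC2-like cells. In each genotype the male library was above the female, and the genotypes overlapped (log2 0.02, SE 0.08, edgeR adjusted p = 0.980). An Areg UMI was found in 71.0% and 72.9% of thinned Csf2-/- and 71.9% and 75.8% of thinned Csf2+/- cells.

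Calca, whose transcript encodes the vasoactive neuropeptide CGRP, had 263 and 328 CPM in Csf2-/- and 364 and 332 in Csf2+/- ILC2-like cells. Both Csf2-/- libraries were below both Csf2+/- ones, the male pair by a small margin (log2 -0.28, SE 0.10, edgeR adjusted p = 0.445). After thinning, Calca was found in 21.9% and 27.2% of Csf2-/- and 27.8% and 27.4% of Csf2+/- cells, again without overlap (exact permutation p = 0.333).

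Ccl1, the chemokine that attracts CCR8-bearing lymphocytes, had 267 and 388 CPM in Csf2-/- and 374 and 401 in Csf2+/- ILC2-like cells. The Csf2-/- female library stood apart below the other libraries, and the genotypes overlapped (log2 -0.29, SE 0.16, edgeR adjusted p = 0.634). Without the Csf2-/- male library the difference was -0.57 (edgeR adjusted p = 0.00288), in a fit where 1 Csf2-/- library is left, the spread comes from the Csf2+/- pair and 103 genes were called in all. After thinning, Ccl1 was found in 20.7% and 24.7% of Csf2-/- and 22.2% and 24.5% of Csf2+/- cells.

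Hs3st1, a sulfotransferase that makes the 3-O-sulfated heparan sulfate to which antithrombin binds, had 238 and 288 CPM in Csf2-/- and 312 and 362 in Csf2+/- ILC2-like cells. Both Csf2-/- libraries were lower than both Csf2+/- libraries (log2 -0.40, SE 0.10), and the difference did not pass in the edgeR quasi-likelihood test (adjusted p = 0.216). In thinned cells 31.2% and 34.9% of Csf2-/- and 38.8% and 40.1% of Csf2+/- cells held a Hs3st1 UMI, a mean of 33.1% ± 2.59 against 39.5% ± 0.929 (SD, n = 2 each, exact permutation p = 0.333). DESeq2 called it (adjusted p = 0.0173), and so did edgeR without the filter on low counts (0.000311), where 83 and 346 genes were called in all. Without the Csf2-/- male library, with the spread taken from the Csf2+/- pair, its edgeR adjusted p was 0.00629.

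Across all 11573 genes tested in ILC2-like cells, 3 were called, all lower in Csf2-/-, and 1118 had an unadjusted p under 0.05, against 0 and 2 of the 8 genes (Calca and Hs3st1). The median log2 difference over all genes was -0.01. DESeq2 called 83 genes, among them 1 of the 8, of which 6 had an adjusted p. Besides Csf2, the called genes were Retnla, a secreted resistin-like protein, and Ypel2. Retnla fell to 0.575 and 1.43 CPM in Csf2-/- ILC2-like cells, against 12.4 and 16.3 in Csf2+/- (log2 -3.77, SE 0.29, edgeR adjusted p = 0.00205). Retnla also led cluster 16, an unnamed myeloid cluster with 58 and 57 cells in Csf2-/- libraries and 282 and 326 in Csf2+/- ones, and the part of its transcripts in the ILC2-like value was not tested.

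**Figure D2:**
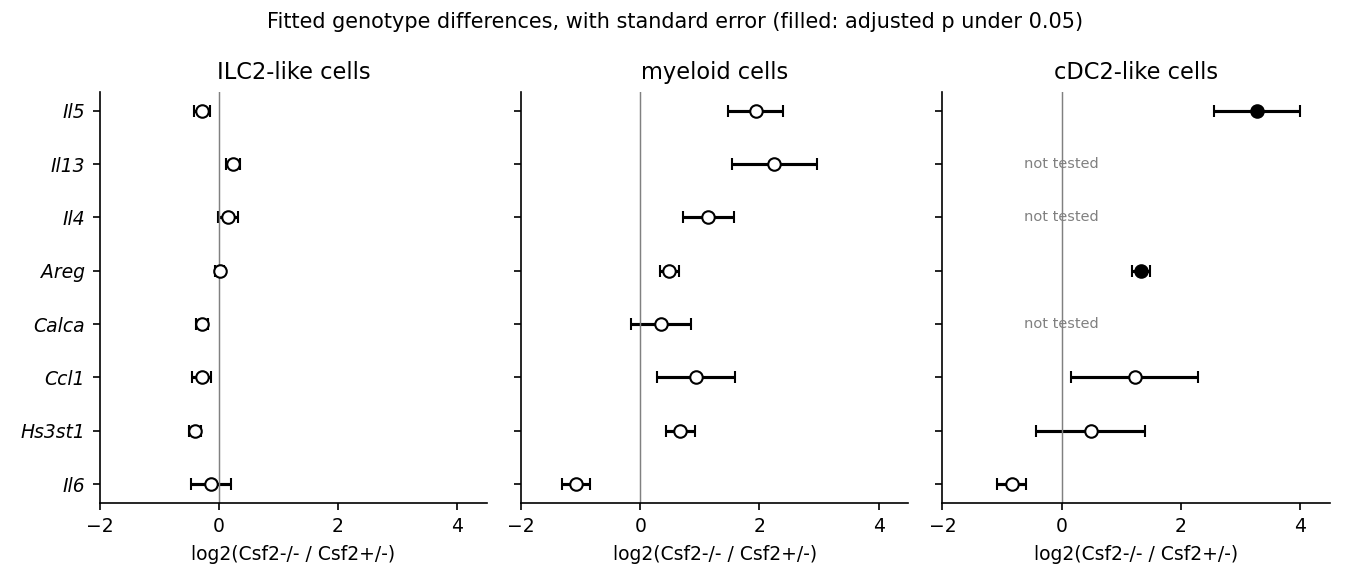
Fitted log2 difference of each gene, Csf2-/- over Csf2+/-, with its standard error, in ILC2-like, myeloid and cDC2-like cells; filled points have an edgeR adjusted p under 0.05. In ILC2-like cells the points lie between -0.40 and 0.24 and none is filled, while Il5 (3.28) and Areg (1.33) are filled in cDC2-like cells.

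Genes that act with these products gave few edgeR calls as well. Of all 11573 genes in ILC2-like cells, edgeR called 3, DESeq2 called 83, and 1118 had an unadjusted edgeR p under 0.05. The transcription factors, upstream receptors and mitochondrial transcripts below held larger shares at such an unadjusted p than all genes did. Among the transcription factors the share called by DESeq2 was larger too. Of 20 transcription factors of type 2 lymphocytes, all tested, none was called by edgeR and 3 were by DESeq2 (Zbtb16, Nfkb1 and Rora), 6 had an unadjusted edgeR p under 0.05, and the median log2 difference was -0.14, against -0.01 over all genes. Gata3, the master factor, stood at 953.5 and 1043 CPM in Csf2-/- and 1037 and 1124 in Csf2+/- ILC2-like cells. Zbtb16, which encodes PLZF and marks the innate lymphoid progenitor, stood at 77.5 and 73.8 CPM in Csf2-/- and 100.6 and 109.98 in Csf2+/- cells (log2 -0.52, SE 0.08, edgeR adjusted p = 0.0610). Of 24 upstream receptors 23 were tested and none was called by edgeR or DESeq2, with 6 at an unadjusted p under 0.05 (median -0.08). Among them the IL-33 receptor Il1rl1 was at 810.5 and 922 CPM in Csf2-/- and 875 and 1055 in Csf2+/- cells, with overlap.

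Of 28 other secreted products 23 were tested, 2 were called lower (Csf2 and Retnla) and none higher, with a median of 0.04, and DESeq2 called Csf2 alone. Of 25 genes near Csf2 on chromosome 11, 18 were tested and only Csf2 itself was called, by both tools (median 0.03). Of 17 heparan sulfate genes 15 were tested and none was called by edgeR, 2 having an unadjusted p under 0.05 (Hs3st1 and Hs2st1, median -0.17), while DESeq2 called Hs3st1. None of 25 activation and immediate early genes was called by edgeR, with 4 at an unadjusted p under 0.05, and DESeq2 called Nr4a3 (median 0.01). The 13 mitochondrial transcripts, a sign of RNA quality, had a median of -0.21 with 10 negative, none called by edgeR, 8 at an unadjusted p under 0.05 and 2 called by DESeq2. The summed level of all 37 mitochondrial genes was 23502 and 24751 CPM in Csf2-/- and 26011 and 29902 in Csf2+/- ILC2-like cells, and its part in the values of the 8 genes was not tested.

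Within the ILC2-like cells the 8 genes were spread unevenly over the clusters. Calca was highest in cluster 20, led by Thsd4, Stab2 and Calca, at 805 and 899 CPM in Csf2-/- and 940.5 and 705 in Csf2+/- cells, against 45.1 and 95.2 in Csf2-/- and 78.7 and 61.3 in Csf2+/- cells of cluster 8. Il13 was low in cluster 8, at 23.7 and 30.1 in Csf2-/- and 9.89 and 45.5 in Csf2+/- cells. It was higher in the dividing cluster 36, led by Stab2, Areg and Stmn1 and with Top2a among its leading genes, at 245 and 204 in Csf2-/- and 129 and 210.1 in Csf2+/- cells.

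In cluster 20 alone Il13 stood at 199 and 206 in Csf2-/- and 99.1 and 107 in Csf2+/- cells, without overlap and with no test, since it was singled out after its values were seen. Il5 was high in cluster 1, led by Ptpn13 and Areg, at 214 and 172 in Csf2-/- and 189 and 231 in Csf2+/- cells, and lower in cluster 20, at 53.03 and 59.5 in Csf2-/- and 62.1 and 84.9 in Csf2+/- cells. Single libraries were higher in small clusters, with 337 in cluster 36 of the Csf2+/- male and 269 in cluster 44 of the Csf2+/- female library. Hs3st1 in cluster 1 kept the order seen over all ILC2-like cells, with 319 and 370.0 in Csf2-/- and 386 and 433 in Csf2+/- cells.

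The type 2 cytokines were held by few cells. The 10 cells with most Il13 UMIs held 26.0% and 18.2% of all Il13 UMIs of Csf2-/- and 32.9% and 32.3% of those of Csf2+/- ILC2-like cells. For Il5 the top 10 cells held 15.6% and 16.2% in Csf2-/- and 18.1% and 16.9% in Csf2+/- cells. Areg was spread more evenly, with 6.87% and 4.15% in Csf2-/- and 7.13% and 6.00% in Csf2+/- cells.

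Il13 was found together with Il4 and Il5. Among thinned ILC2-like cells with an Il13 UMI, 9.22% and 16.5% of Csf2-/- and 8.41% and 14.1% of Csf2+/- cells also held Il4, against 2.32% and 4.52% of Csf2-/- and 2.99% and 4.498% of Csf2+/- cells without Il13. Il5 was found in 27.0% and 31.3% of Il13-positive Csf2-/- and 36.4% and 37.8% of Il13-positive Csf2+/- cells, against 17.0% and 15.04% of Il13-negative Csf2-/- and 13.6% and 18.3% of Il13-negative Csf2+/- cells. In both cases the cells with Il13 were higher in all 4 libraries.

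Hs3st1 and Calca were likewise found together, with a Hs3st1 UMI in 40.5% and 46.0% of Calca-positive Csf2-/- and 48.2% and 51.9% of Calca-positive Csf2+/- cells. Among Calca-negative cells it was found in 26.6% and 31.7% of Csf2-/- and 34.5% and 38.4% of Csf2+/- cells, so Hs3st1 was lower in Csf2-/- libraries among cells with and without Calca. No UMI of any of the 8 genes was found in 12.9% and 10.6% of thinned Csf2-/- and 13.8% and 9.61% of thinned Csf2+/- ILC2-like cells. Cells with exactly 1 of the 8 made up 33.7% and 28.5% in Csf2-/- libraries and 28.3% and 24.9% in Csf2+/- ones. These pairs are described per library, with no test, since cells of 1 library are not replicates.

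**Figure D3:**
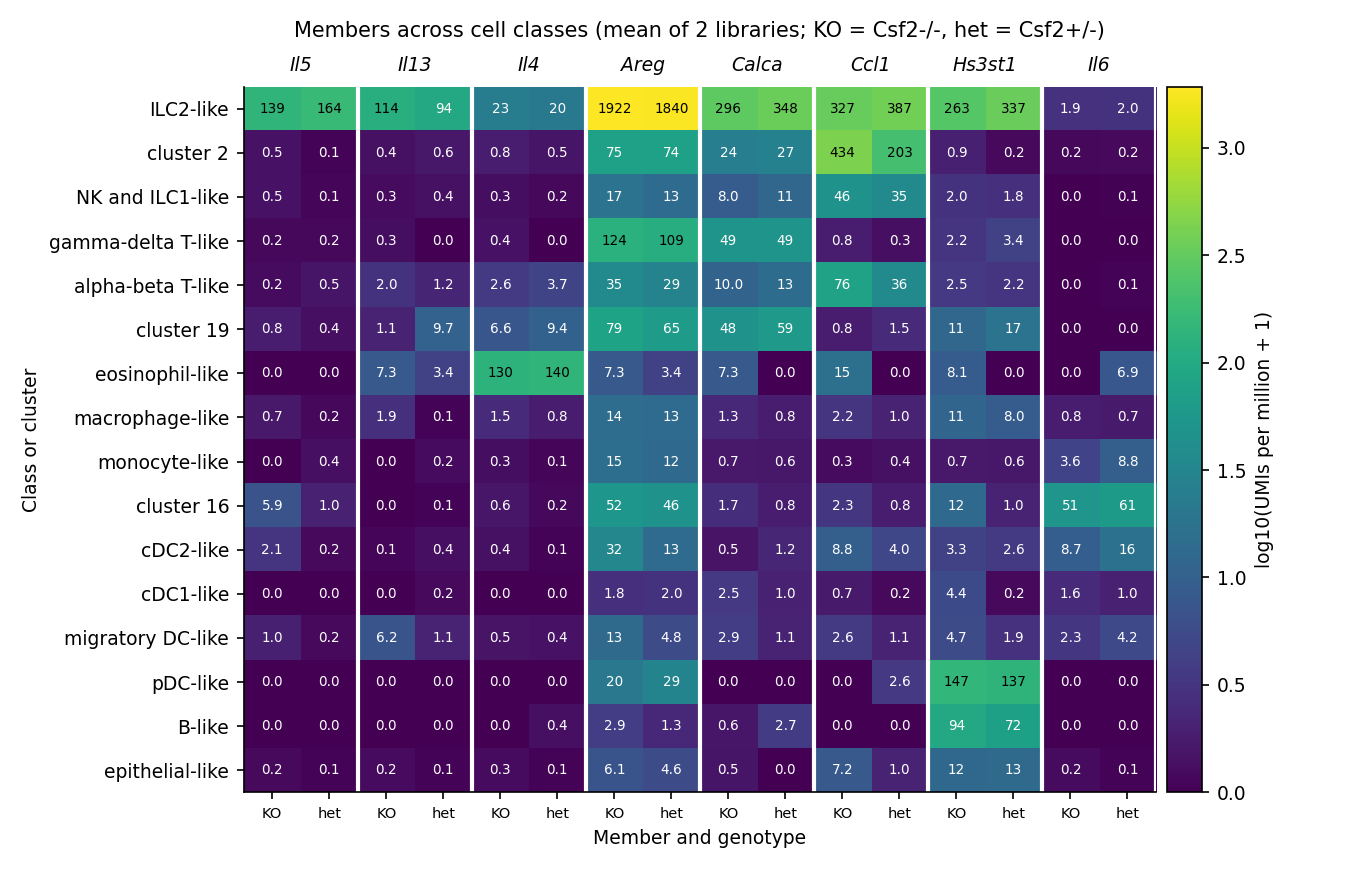
Mean level over 2 libraries of each gene in each class or cluster, printed in CPM and coloured by log10 of the level plus 1, with Csf2-/- (KO) left of Csf2+/- (het) for each gene. Il5 and Il13 are close to 0 outside the ILC2-like row, whereas Il4 is highest in eosinophil-like cells, Ccl1 is also high in cluster 2 and Hs3st1 in pDC-like and B-like cells.

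Across the whole sort, nearly all Il5 and Il13 UMIs lay in ILC2-like cells in the 4 libraries. ILC2-like cells held 97.9% and 96.5% of all Il5 UMIs in Csf2-/- libraries and 98.5% and 97.1% in Csf2+/- ones. They held 94.5% and 96.1% of Il13 UMIs in Csf2-/- libraries and 93.5% and 93.6% in Csf2+/- ones. For Areg the share was 91.2% to 93.6%, for Calca 81.6% to 91.5% and for Hs3st1 84.4% to 91.5% over the 4 libraries.

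Over the 14 other classes and clusters tested apart, 3 of 40 tests of the 8 genes were called, against 0.841% of 131170 tests over all genes. They are Ccl1 in cluster 2 and Areg and Il5 in cDC2-like cells.

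Il4 was also carried by eosinophils, granulocytes known to store it. Its level in eosinophil-like cells was 114 and 147 CPM in Csf2-/- and 129 and 151 in Csf2+/- cells, above that in ILC2-like cells in every library and overlapping between genotypes (log2 -0.11, SE 0.44, edgeR adjusted p = 0.967). Those values rest on 7 and 10 UMIs in Csf2-/- and 19 and 22 in Csf2+/- cells, whose median depth was 660.5 to 812 UMIs. ILC2-like cells held 72.2% to 81.5% of all Il4 UMIs in the 4 libraries.

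Ccl1 was shared with other lymphocytes. ILC2-like cells held 42.4% and 71.3% of Ccl1 UMIs in Csf2-/- libraries and 65.1% and 72.0% in Csf2+/- ones. Cluster 2, which stayed unnamed and was led by Gzmc, Klrb1b, Dscam and Xcl1, with 10 of 13 NK and ILC1 markers at 20 CPM or more, had 449 and 419.9 CPM of Ccl1 in Csf2-/- and 215 and 191 in Csf2+/- cells. Both Csf2-/- libraries were well above both Csf2+/- libraries, and Ccl1 rose (log2 1.09, SE 0.09, edgeR adjusted p = 1.66e-07), 1 of 7 genes called higher there (0.0671% of 10428 genes tested).

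The share of cluster 2 cells with a Ccl1 UMI did not differ in that way, at 4.52% and 7.75% in Csf2-/- and 7.40% and 5.75% in Csf2+/- cells. The 10 highest cells held 97.6% and 92.5% of the Ccl1 UMIs of the cluster in Csf2-/- libraries and 83.0% and 93.1% in Csf2+/- ones, and a single cell held up to 875 and 416 UMIs in Csf2-/- libraries and 303 and 286 in Csf2+/- ones. In ILC2-like cells, by comparison, 10 cells held 16.8% and 10.6% of Ccl1 UMIs in Csf2-/- libraries and 16.7% and 16.1% in Csf2+/- ones. In cluster 2, 50% of the Ccl1 UMIs were held by 2 and 3 cells of Csf2-/- and 4 and 2 cells of Csf2+/- libraries. In a joint fit with ILC2-like cells, with library as a block, the genotype difference of Ccl1 in cluster 2 was 1.39 larger (SE 0.33) and did not pass (edgeR adjusted p = 0.771, unadjusted p = 0.0393, with 0.0929% of 11835 genes called).

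Hs3st1 was found in B-like cells, at 82.7 and 104.6 CPM in Csf2-/- and 62.6 and 81.7 in Csf2+/- cells, without overlap, and the difference did not pass (log2 0.38, SE 0.20, edgeR adjusted p = 0.758). In plasmacytoid dendritic-like cells, 17 to 31 per library, it stood at 175 and 119 in Csf2-/- and 96.9 and 176 in Csf2+/- cells. Areg and Calca had a second, lower level in gamma-delta T-like cells, Areg at 88.4 and 159 in Csf2-/- and 129 and 88.0 in Csf2+/- cells, and Calca at 48.5 and 49.4 in Csf2-/- and 62.3 and 35.4 in Csf2+/- cells.

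Most Il6 UMIs lay outside ILC2-like cells, which held 4.51% to 17.7% of them. Cluster 16, led by Retnla, Fn1, Lyz1 and Lpl, held 28.5% and 19.01% of Il6 UMIs in Csf2-/- libraries and 59.8% and 54.0% in Csf2+/- ones. Its level was 47.4 and 54.0 in Csf2-/- and 71.1 and 50.1 in Csf2+/- cells, which overlapped (log2 -0.21, SE 0.22, edgeR adjusted p = 0.734). The fall in the total, to 158 and 242 UMIs in Csf2-/- against 599 and 519 in Csf2+/- libraries, went with the number of cluster 16 cells given above. How far cell number sets the total was not tested.

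The genes most alike to each of the 8 across 12 classes and 4 libraries were found by Pearson correlation of log2(CPM + 1) over 48 points, which share libraries and depth. Il5 was closest to the melanocortin receptor Mc5r (r = 0.976), highest in ILC2-like cells. Il13 was closest to Il5 itself (0.885). Il4 was closest to Tuba8 (0.933) and Serpinb2 (0.834), both highest in eosinophil-like cells. Tuba8 averaged 30.4 CPM in those cells, whose median depth was 660.5 to 812 UMIs, so its place rests on few UMIs.

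Areg was nearest to Stab2 (0.893) and Amph (0.880), Calca to Tnfrsf10b (0.934) and Eprs (0.924), and Ccl1 to the lectin receptor Klrg1 (0.906) and Ctla2a (0.866). Hs3st1 was nearest to Gm42528 (0.902) and Kalrn (0.851). Il6 alone had myeloid partners, Kcne3 (0.778) and Ear2 (0.777), highest in cDC2-like and monocyte-like cells.

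The myeloid barcodes, the macrophage-like, monocyte-like, cDC1-like, cDC2-like and migratory dendritic-like cells without the plasmacytoid ones, numbered 2401 and 2667 in Csf2-/- libraries and 2193 and 2331 in Csf2+/- ones. None of the 8 genes passed the edgeR quasi-likelihood test there, where 2.58% of 13540 genes were called. Both Csf2-/- libraries lay above both Csf2+/- libraries for Il5, Il13, Il4, Areg and Hs3st1, and 6 of the 8 genes had an unadjusted p under 0.05, as did 2157 of all 13540 myeloid genes. How many of all genes split in that way was not counted, so the split is a description only. DESeq2 called 1 of the 8, Il6, and 443 genes in all. Il5 had 0.613 and 1.02 CPM in Csf2-/- and 0.205 and 0.209 in Csf2+/- myeloid cells, from 17 and 34 UMIs in Csf2-/- libraries and 6 and 6 in Csf2+/- ones. The genotypes did not overlap (log2 1.94, SE 0.46, edgeR adjusted p = 0.0659). Il13 had 0.505 and 2.00 in Csf2-/- and 0.205 and 0.314 in Csf2+/- myeloid cells (log2 2.25, SE 0.71, edgeR adjusted p = 0.185). A single cell held 12 of the 14 Il13 UMIs of the Csf2-/- female and 37 of the 67 of the Csf2-/- male library, against 4 of 6 in the Csf2+/- female and 1 of 9 in the Csf2+/- male library.

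Il4 stood at 0.649 and 1.29 CPM in Csf2-/- and 0.342 and 0.523 in Csf2+/- myeloid cells (log2 1.14, SE 0.43, edgeR adjusted p = 0.232). Areg stood at 13.1 and 19.6 in Csf2-/- and 11.4 and 11.4 in Csf2+/- cells (log2 0.49, SE 0.16, edgeR adjusted p = 0.196), and Hs3st1 at 6.49 and 8.13 in Csf2-/- and 3.28 and 5.72 in Csf2+/- cells (log2 0.67, SE 0.24, edgeR adjusted p = 0.226). In these 3 genes, too, both Csf2-/- libraries were above both Csf2+/- ones. Calca, at 0.577 and 1.85 in Csf2-/- and 1.06 and 0.837 in Csf2+/- cells, and Ccl1, at 1.30 and 4.99 in Csf2-/- and 1.71 and 1.53 in Csf2+/- cells, overlapped, with the Csf2-/- male library alone above the rest.

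Il6 went the other way, at 2.06 and 3.62 CPM in Csf2-/- and 6.12 and 5.62 in Csf2+/- myeloid cells (log2 -1.07, SE 0.24). It missed the threshold in the edgeR quasi-likelihood test (adjusted p = 0.0568) and was called by DESeq2 (adjusted p = 0.0146), and with cluster 16 counted as myeloid, a choice made after seeing the data, it was called at -1.81 (edgeR adjusted p = 0.00124). Sex as a block also called it (0.0477), as it did Il13 (2.15, adjusted p = 0.0307), whose UMIs lay mostly in 1 cell of each Csf2-/- library, and 674 genes in all.

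Detection in myeloid cells was rare. An Areg UMI was found in 4.08% and 4.499% of Csf2-/- and 4.65% and 4.08% of Csf2+/- myeloid cells, and an Il5 UMI in 0.333% and 0.412% of Csf2-/- and 0.274% and 0.257% of Csf2+/- cells. B-like cells stood for a type that should lack both, with 0% and 2.97% for Areg in Csf2-/- and 0.797% and 0.685% in Csf2+/- cells, and no Il5 UMI in 167 and 101 Csf2-/- and 251 and 146 Csf2+/- cells. A count of 0 there allows a share of up to 1.80% and 2.97% in Csf2-/- and 1.20% and 2.05% in Csf2+/- B-like cells, so the Il5 share of myeloid cells cannot be set apart from background at this depth. Median depths were 10430 and 11203 UMIs in Csf2-/- and 12325 and 11235 in Csf2+/- myeloid cells, and 4628 and 4614 in Csf2-/- and 5213 and 5040.0 in Csf2+/- B-like cells. For Hs3st1, which B-like cells carry, they are no such background.

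**Figure D4:**
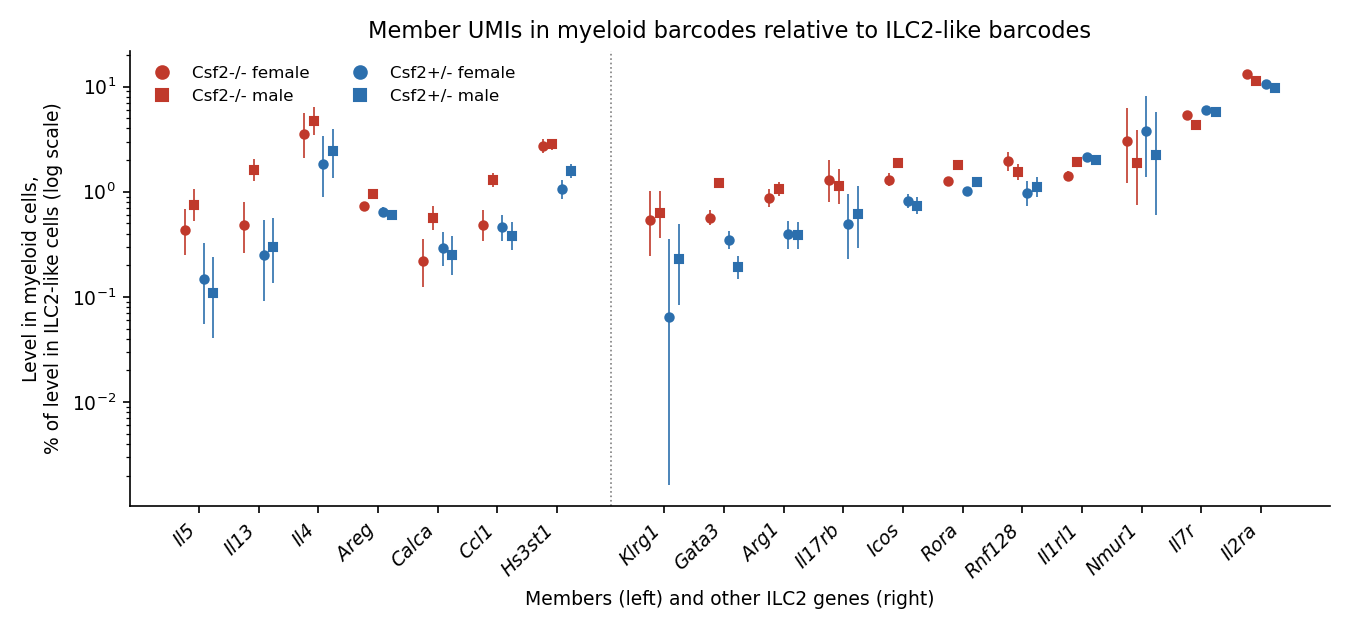
Level in myeloid cells as a percent of that in ILC2-like cells of the same library, on a log axis, for 7 of the 8 genes (left of the dotted line, Il6 left out) and 11 ILC2 genes that are not secreted (right), with exact 95% Poisson intervals of the myeloid count. Red Csf2-/- points of Il5 are at 0.429% and 0.754% and blue Csf2+/- points at 0.149% and 0.110%, and most genes on both sides lie between 0.1% and 6%.

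As a percent of the level in ILC2-like cells of the same library, the myeloid level of Il5 was 0.429% and 0.754% in Csf2-/- libraries and 0.149% and 0.110% in Csf2+/- ones. The percent of Il13 was 0.480% and 1.62% in Csf2-/- libraries and 0.248% and 0.298% in Csf2+/- ones, and that of Areg 0.727% and 0.961% in Csf2-/- libraries and 0.642% and 0.599% in Csf2+/- ones. Il4 stood at 3.51% and 4.74% in Csf2-/- libraries and 1.84% and 2.42% in Csf2+/- ones, and Hs3st1 at 2.73% and 2.82% in Csf2-/- libraries and 1.05% and 1.58% in Csf2+/- ones. For each of these 5 genes the Csf2-/- libraries were above the Csf2+/- ones, a split for which the exact permutation test gives p = 0.333, its smallest.

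The percent of Calca was 0.219% and 0.565% in Csf2-/- libraries and 0.291% and 0.252% in Csf2+/- ones, and that of Ccl1 0.487% and 1.29% in Csf2-/- libraries and 0.458% and 0.383% in Csf2+/- ones. These 2 overlapped, with the Csf2-/- male library highest. Il6, at 89.4% and 235% in Csf2-/- libraries and 311% and 276% in Csf2+/- ones, was near or above its ILC2-like level. Over the 7 genes without Il6, the percent of Ccl1 was the median in each library. The median of these 4 library medians was 0.473%. The same median of library medians was 0.980% with doublets kept and 0.309% in myeloid cells without a UMI of 6 ILC2 genes.

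Genes that ILC2s use but do not secrete were read in the same way, and whether myeloid cells make some of them themselves was not tested. Over 11 such genes the median percent was 1.31% and 1.81% in Csf2-/- libraries and 0.968% and 1.12% in Csf2+/- ones, with single genes from 0.0639% (Klrg1) to 13.2% (Il2ra). In myeloid cells without a UMI of 6 ILC2 genes, the highest single gene still stood at 13.4% and 11.0% in Csf2-/- libraries. In Csf2+/- libraries it stood at 11.7% and 10.6%, so the list does not measure ILC2 transcripts alone. In myeloid cells 9 of the 12 genes of that list were tested, 7 had a positive difference and 1, Arg1, was called higher (log2 1.34, SE 0.21, edgeR adjusted p = 0.0148), against 0.532% of all genes called higher. The median log2 difference of the 9 was 0.64, against 0.01 over all genes, 6 of them had an unadjusted p under 0.05, and DESeq2 called Arg1 and Icos. Gata3 was at 5.41 and 12.6 CPM in Csf2-/- and 3.59 and 2.16 in Csf2+/- myeloid cells. The part of ILC2 transcripts in the myeloid values of the 8 genes was not tested.

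When myeloid cells with any UMI of 6 ILC2 genes (Gata3, Il1rl1, Il17rb, Rnf128, Ptgdr2 or Nmur1) were set apart, they made up 13.9% and 16.1% of Csf2-/- and 18.7% and 18.5% of Csf2+/- myeloid cells. Most held Il1rl1, which was found in 8.83% and 11.4% of Csf2-/- and 15.1% and 14.5% of Csf2+/- myeloid cells, so the split takes different shares of cells in the genotypes and its values are a description only. Among them Areg was at 26.1 and 67.0 CPM in Csf2-/- and 9.85 and 12.3 in Csf2+/- cells. Among the rest it was at 10.4 and 6.59 in Csf2-/- and 11.8 and 11.2 in Csf2+/- cells (log2 -0.47, edgeR adjusted p = 0.384). Il13 stood at 2.74 and 8.60 in Csf2-/- and 0.579 and 0.151 in Csf2+/- cells with such a UMI, and at 0.0435 and 0.191 in Csf2-/- and 0.0896 and 0.363 in Csf2+/- cells without.

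Within the myeloid cells, 2 of the 8 genes were called in cDC2-like cells, the dendritic cells that prime CD4 T cells, where 4.58% of 10790 genes were called, 1.8% higher. Areg rose there to 32.3 and 32.6 CPM in Csf2-/- cells, against 12.4 and 13.9 in Csf2+/- cells (log2 1.33, SE 0.15, edgeR adjusted p = 0.000162). The libraries of a genotype lay close together and the genotypes far apart. The share of cells with an Areg UMI was closer, at 8.18% and 6.22% in Csf2-/- and 5.46% and 5.63% in Csf2+/- cells, and 10 cells held 82.2% and 88.9% of the UMIs in Csf2-/- libraries and 84.7% and 86.0% in Csf2+/- ones.

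In cDC2-like cells with a UMI of the 6 ILC2 genes, 79 and 107 in Csf2-/- libraries and 194 and 189 in Csf2+/- ones, Areg was at 68.9 and 82.4 CPM in Csf2-/- and 6.48 and 4.55 in Csf2+/- cells. In those with none, 251 and 327 in Csf2-/- libraries and 227 and 202 in Csf2+/- ones, it was at 18.9 and 11.95 in Csf2-/- and 18.4 and 24.4 in Csf2+/- cells. There the log2 difference was -0.47 (edgeR adjusted p = 0.495). The cells with such a UMI were fewer in Csf2-/- libraries, so here too the sides of the split do not hold like cells.

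Il5 rose in cDC2-like cells to 1.98 and 2.26 CPM in Csf2-/- cells, against 0.126 and 0.2995 in Csf2+/- cells (log2 3.28, SE 0.73, edgeR adjusted p = 0.0181). It rests on 10 and 15 UMIs in 3 and 6 cells in Csf2-/- and 1 and 2 UMIs in 1 and 2 cells in Csf2+/- libraries. A single cell held 8 of the 10 UMIs of the Csf2-/- female and 9 of the 15 of the Csf2-/- male library. With sex entered as a block the call was lost (adjusted p = 0.0510), as it was without the Csf2-/- female (0.115), Csf2+/- female (0.149) or Csf2+/- male library (0.101). Il6 in the same cells was at 6.14 and 11.2 in Csf2-/- and 13.9 and 18.4 in Csf2+/- cells (log2 -0.84, SE 0.25, edgeR adjusted p = 0.0822), and was called with sex as a block (0.0397).

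Set against ILC2-like cells in 1 fit with library as a block, the genotype differences of 2 of the 8 genes were larger in all myeloid cells, Il5 by 2.22 (SE 0.38, edgeR adjusted p = 0.0189) and Hs3st1 by 1.07 (SE 0.15, adjusted p = 0.0142), where 0.864% of 13896 genes were called. In cDC2-like cells they were larger for Il5 and Areg, 2 of the 8, where 2.43% of 12201 genes were called.

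**Figure D5:**
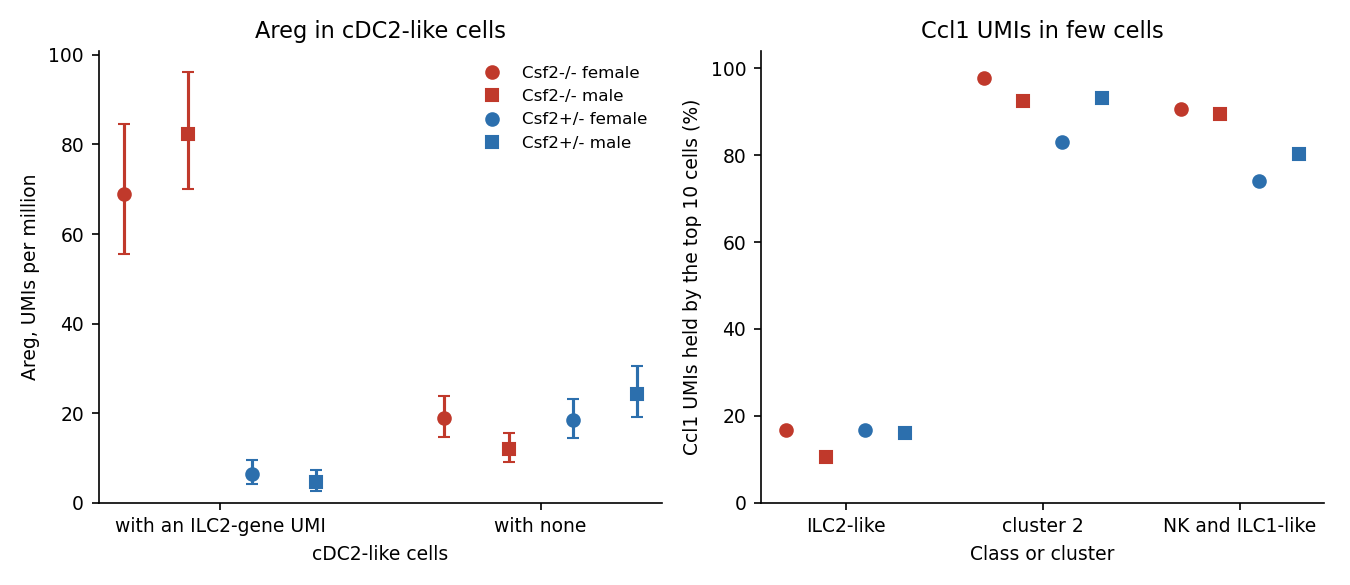
Left, Areg level in CPM with exact 95% Poisson intervals in cDC2-like cells with a UMI of 6 ILC2 genes and with none, 1 point per library. Right, percent of Ccl1 UMIs held by the 10 highest cells of ILC2-like cells, cluster 2 and NK and ILC1-like cells. Areg is at 68.9 and 82.4 in Csf2-/- and 6.48 and 4.55 in Csf2+/- cells with an ILC2-gene UMI and overlaps in cells with none.

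The receptors for these products were themselves read in the myeloid cells. Of 14 receptor genes 11 were tested there and 1 was called, Csf2rb, the signalling chain shared by the receptors for IL-5 and GM-CSF. It fell to 68.1 and 71.4 CPM in Csf2-/- cells, against 115 and 96.6 in Csf2+/- cells (log2 -0.64, SE 0.10, edgeR adjusted p = 0.0177). Il4ra, the chain shared by the IL-4 and IL-13 receptors, was at 50.5 and 53.4 in Csf2-/- and 47.0 and 51.2 in Csf2+/- cells, with overlap (log2 0.05, SE 0.07, edgeR adjusted p = 0.785). The median over the 11 was -0.01, against 0.01 over all genes tested. In ILC2-like cells 9 of the 14 were tested and none was called by edgeR or DESeq2, with 1, Il4ra, at an unadjusted p under 0.05 (log2 -0.39, median of the 9 0.05).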

How the data were processed

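Single-cell 3′ RNA-seq counts were analysed in 4 libraries of CD45+ salivary gland cells. The deposited matrices hold raw UMI counts per gene and barcode, and per the submitters' processing notes the authors used Cell Ranger 7.0.0 and the build GRCm39. Barcodes had to have 500 or more UMIs, 300 or more genes and no more than 10% mitochondrial UMIs, which 37644 of 39395 did. The expected share of doublets with the highest Scrublet scores was removed in each library (scanpy 1.11.5), 7.01% to 7.80% of barcodes. Cells were clustered by Leiden (leidenalg 0.10.2) at resolution 1.5, leaving out the 8 genes and Csf2, and clusters were named from fixed marker lists.

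UMIs were summed per library and class, and genotype was tested with edgeR 4.0.16 (quasi-likelihood, TMM, robust, low-count filter), with Benjamini-Hochberg adjustment over all genes of a class at 0.05 and 2 residual degrees of freedom, or 1 with sex in the fit or a library left out, when the lone library is assumed to vary like the other genotype. The SE is the log2 change divided by the square root of its F statistic. Levels are CPM (UMIs per 1000000), computed here from the summed counts. Shares of cells have exact binomial 95% intervals (scipy 1.17.1), also after thinning to 3000 UMIs, which left out 13 to 38 ILC2-like cells per library. The limit for a count of 0 is 3 cells. Depth was 111981802 to 122366588 UMIs per library, and intervals cover counting error only. The scripts were tested on simulated data.

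Alternatives were DESeq2 1.42.0, its size factors in edgeR, no low-count filter, sex as a block, each library left out, doublets kept, stricter barcode filters, resolution 0.8, thinning to 2000 UMIs and gates on barcodes. The genes named are the 8 and Csf2, up to 4 genes with the lowest p of each list among those past 0.05 in ILC2-like cells, and for each of the 8 the 2 genes most alike, of which 1 gene is not reported here. Arg1, Gata3, Il1rl1, Csf2rb, Il4ra and Ypel2 were named after their values were seen. The 8 genes and the lists were chosen with earlier results of these data known. Nothing in the labels says how the pools differ beyond genotype and sex.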

Additional observations from a re-analysis of the deposited data

Results flagged for a closer look

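Several differences between Csf2-/- and Csf2+/- libraries were not of the same size in ILC2-like cells and in myeloid cells when both were fitted together with library as a block. Il5, the eosinophil growth factor, differed by 2.22 more on the log2 scale in myeloid than in ILC2-like cells (SE 0.38, edgeR adjusted p = 0.0189), and Hs3st1 by 1.07 more (SE 0.15, adjusted p = 0.0142), with 0.864% of 13896 genes called. Hs3st1 was higher in myeloid and lower in ILC2-like cells of Csf2-/- libraries, without overlap in either, whereas the Il5 levels of ILC2-like cells overlapped. The myeloid Il5 counts were 17 and 34 UMIs in Csf2-/- and 6 and 6 in Csf2+/- libraries.

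In cDC2-like against ILC2-like cells, Il5 differed by 3.60 (SE 0.56, edgeR adjusted p = 0.000587) and Areg by 1.31 (SE 0.11, adjusted p = 1.73e-07), with 2.43% of 12201 genes called. The cDC2-like Il5 counts were 10 and 15 UMIs in Csf2-/- and 1 and 2 in Csf2+/- libraries. A single cell held 8 of the 10 and another 9 of the 15. Areg was at 32.3 and 32.6 CPM in Csf2-/- and 12.4 and 13.9 in Csf2+/- cDC2-like cells. Few cells held these Areg UMIs as well. The 10 highest held 82.2% and 88.9% in Csf2-/- libraries and 84.7% and 86.0% in Csf2+/- ones.

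Calca in myeloid cells moved in opposite directions in the sexes, at -0.88 (log2, Csf2-/- over Csf2+/-) in females and 1.15 in males. These rest on 16 UMIs in Csf2-/- and 31 in Csf2+/- females, and on 62 in Csf2-/- and 24 in Csf2+/- males. With 1 library per sex and genotype this difference was not tested.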

How the results depend on the processing

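Csf2 was called in ILC2-like cells under all 12 alternatives. For single genes, 206 of 243 values were counted as unchanged. For log2 changes this meant the same direction and side of the threshold. For shares of cells the sign could turn in a value counted as unchanged. The Il4 share, Csf2-/- minus Csf2+/-, was 0.830 percentage points in the main setting and -0.597 with thinning to 2000 UMIs. The number of genes called in ILC2-like cells (3) was 83 with DESeq2, 346 with no low-count filter, 42 with sex as replicate block, 8 with doublets kept, 6 with at least 1000 UMIs and at most 5% mitochondrial UMIs, 5 at resolution 0.8, 9 without cells with a Cd3 UMI, and 3 to 103 with 1 library left out. Of the 8 genes, 1 was called with DESeq2, 3 with no filter (Il5, Calca and Hs3st1) and 0 to 2 with 1 library left out. In myeloid cells 1 was called with DESeq2, 2 with no filter, 2 with the block, 1 each with doublets kept, the stricter filter, resolution 0.8 or cluster 16 added, and 0 to 3 with 1 library left out. Calls over all myeloid genes (350) were 443, 724 and 674 under the first 3 of these, 820, 403, 359 and 822 under the next 4, and 121 to 465 with 1 library left out. In other classes the 3 calls (1103 over all genes) became 8 with no filter (3192) and 4 to 12 with 1 library left out (987 to 2433). With DESeq2 the other classes gave 2 calls among 32 tests of the 8 genes with an adjusted p (720 over all genes). The block changed no other call named here than those given above. In the labels only sex sets the 2 female libraries apart from the male ones, and their deviations correlated at 0.196 over 11573 genes. Whether they also shared a batch is not given, so sex and batch cannot be told apart here. The 4 genes with shares that do not overlap were Il13, Il6, Calca and Hs3st1. They became 2 with thinning to 2000 UMIs (Il13 and Hs3st1) and 2 with none (Ccl1 and Hs3st1). How many of all genes have such shares was not counted. The median of the 4 library medians of the myeloid percent, 0.473%, was 0.980% with doublets kept and 0.309% in myeloid cells without a UMI of 6 ILC2 genes.

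With 1 library left out, signs turned for Il4 (-0.15 to 0.37), Il6 (-0.44 to 0.17) and Areg (-0.058 to 0.086) in ILC2-like cells and for Calca (-0.71 to 0.89) and Ccl1 (-0.32 to 1.55) in myeloid cells. In myeloid cells without a UMI of 6 ILC2 genes Areg was -0.47 and Calca -0.077, with doublets kept Calca was -0.0021, and in cDC2-like cells without such a UMI Areg was -0.47, a choice that leaves out more Csf2+/- than Csf2-/- cells. The cause was not tested. Depth limits Il6 in ILC2-like cells (25 to 28 UMIs per library) and the cytokines in myeloid cells, and each test has 1 or 2 residual degrees of freedom.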
